A study of Mus musculus with 8 samples.

Results

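Interferon-stimulated genes are the genes that cells switch on when interferon, or nucleic acid of a virus, reaches them. The list described here holds 46 such genes, was drawn up by name from what is known of these genes, by a rule that uses no measured value although earlier results of these data were known, and all 46 were found among the 15111 genes of the RNA-sequencing table of cultured mouse dermal fibroblasts. It comprises 4 IFIT proteins, 5 members of the OAS family, 2 Mx GTPases, 6 genes of the ISG15 and ubiquitin system, 7 sensors of nucleic acid, 3 transcription factors, 10 other effectors, 6 GBP and IRG GTPases and 3 genes of antigen processing. Fibroblasts were isolated from the skin of adult mice that had been fed tamoxifen, and were kept for 72 h on fibronectin in a medium with serum replacement. Control cells came from Tgfb1fl/fl mice, which carry the floxed *Tgfb1* alleles and no Cre recombinase, and TGFβ1FKO cells from Tgfb1fl/fl:Col1a2-CreERT mice. In the latter, tamoxifen activates a Cre recombinase driven by *Col1a2* regulatory sequences, which are active in fibroblasts and other collagen-producing mesenchymal cells, so that the gene for the growth factor TGFβ1 is deleted in these cells. Each group has 4 libraries, and since the labels do not say whether they come from separate mice, the p-values measure the spread between these libraries only.

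Type I interferons bind the receptor IFNAR, whose kinases JAK1 and TYK2 phosphorylate STAT proteins, among them STAT2. Together with IRF9 the STATs form a complex that binds the interferon-stimulated response element (ISRE) in promoters, whereas interferon gamma acts through STAT dimers on the gamma-activated site (GAS). The induced proteins sense viral nucleic acid, block translation and replication of viruses, hold virus particles at the cell surface or present peptides to T cells, and fibroblasts carry both receptors and respond to them.

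The response element can be read directly from several of these promoters, which are shown because this is the sequence through which interferon acts on the genes. RefSeq windows of 300 bases on GRCm38.p6, from 250 bases before to 50 bases after the transcription start, matched 33 of the 46 genes. The core GAAANNGAAA, searched on both strands, was present in 18 of these 33 windows (54.55%), against 3.993% of the 27025 genes with a window. The shorter element TTCNNNGAA was present in 9 of the 33 (27.27%), against 9.554% of all genes. The 13 genes that were not matched are *Oas2*, *Mx1*, *Mx2*, *Usp18*, *Parp9*, *Parp14*, *Dhx58*, *Zbp1*, *Ifi204*, *Ifi27*, *Ifi27l2a*, *Rtp4* and *Iigp1*. In the following stretches, written 5′ to 3′ on the strand of the gene, capitals mark the ISRE core or its reverse complement, and a longer run of capitals holds overlapping matches.
Isg15 (chr4:156200860-156200911, minus strand): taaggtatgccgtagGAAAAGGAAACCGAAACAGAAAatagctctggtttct
Bst2 (chr8:71537572-71537617, minus strand): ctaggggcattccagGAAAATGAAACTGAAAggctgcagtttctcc
Oas1a (chr5:120907526-120907560, minus strand): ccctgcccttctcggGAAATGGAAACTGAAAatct
Ifit1 (chr19:34640770-34640828, plus strand): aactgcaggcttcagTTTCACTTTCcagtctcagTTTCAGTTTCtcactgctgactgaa
Ifit3 (chr19:34583358-34583431, plus strand): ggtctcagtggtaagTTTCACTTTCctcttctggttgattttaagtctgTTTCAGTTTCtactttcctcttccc
Ifit3b (chr19:34607754-34607827, plus strand): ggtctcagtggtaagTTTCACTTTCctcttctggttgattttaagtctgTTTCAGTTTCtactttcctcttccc
Stat2 (chr10:128270261-128270300, plus strand): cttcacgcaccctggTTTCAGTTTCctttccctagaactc
Gbp7 (chr3:142530268-142530307, plus strand): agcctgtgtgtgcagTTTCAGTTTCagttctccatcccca
Igtp (chr11:58199507-58199546, plus strand): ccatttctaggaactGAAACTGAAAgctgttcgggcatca
*Isg15* held 3 overlapping matches, which lie between 78 and 56 bases before the start. *Bst2* held 2 overlapping matches within 130 to 114 bases before the start, and *Oas1a* 2 within 20 to 4 bases. The stretches of *Ifit3* and *Ifit3b* are identical over 74 bases. A match describes the letters of the window and does not show that a factor binds there.

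The deposited values are read counts scaled by the size factor of each library, here called normalised counts. The reads recovered from them numbered 16988998 to 21806579 in the control libraries and 17445002 to 23071528 in the TGFβ1FKO libraries. The targeted gene *Tgfb1* had 1401, 1298, 1483 and 1314 normalised counts in the control libraries and 326, 259.9, 228 and 295 in the TGFβ1FKO libraries, in the order of replicates 1 to 4 that is kept throughout. TGFβ1FKO fibroblasts thus retained 20.2% of the control level, without overlap of the groups (log2 fold change -2.31, adjusted p = 1.53e-07, limma with Benjamini-Hochberg adjustment). All 10 fibroblast markers on a list, among them *Col1a1* and *Pdgfra*, were in the table with summed normalised counts of 1523680 to 1866940 in control and 1603950 to 1730910 in TGFβ1FKO libraries. Of 16 markers of macrophages and other leukocytes, 5 were among the genes analysed here, and the defining genes *Ptprc*, *Adgre1* and *Itgam* were not. In bulk RNA, fewer cells that express a gene and less RNA of it per cell cannot be told apart.

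The level of the interferon-stimulated genes differed between libraries of the same group. For each library the level was taken as the median over the 46 genes of log2(normalised count + 1) minus the mean of the gene over the 8 libraries. It was 0.04, 0.17, -0.04 and 0.52 in the control libraries and -0.14, 0.08, -0.63 and -0.01 in the TGFβ1FKO libraries. The median of all genes lay between 0.004 and 0.006 in each library, where the scaling by size factors holds it near 0. Control replicate 4 therefore stood above, and TGFβ1FKO replicate 3 below, the other libraries of their groups. Control replicate 4 was the highest of the 8 libraries in 43 of the 46 genes (15.2% of all genes) and TGFβ1FKO replicate 3 the lowest in 43 (12.5% of all genes). Both held together in 42 of the 46 genes, against 3.92% of all genes. The ranges of the groups overlapped: the level of TGFβ1FKO replicate 2 lay above those of control replicates 1 and 3.

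**Figure D1:**
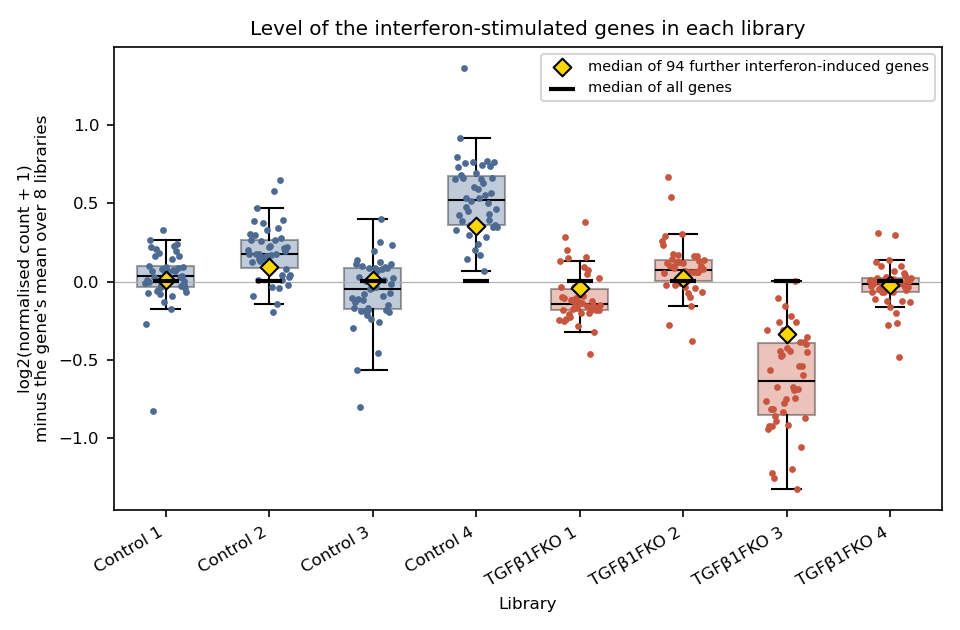
Each dot is 1 of the 46 interferon-stimulated genes in 1 library, as log2(normalised count + 1) minus the mean of the gene over the 8 libraries; boxes give the quartiles and the median, whiskers reach the farthest gene within 1.5 times the box height, diamonds are the median of 94 further interferon-induced genes and black dashes that of all genes. Control replicate 4 lies highest (median 0.52) and TGFβ1FKO replicate 3 lowest (-0.63). The medians of all genes, which the scaling holds near 0, stay between 0.004 and 0.006.

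The spread within groups was correspondingly wide. The within-group SD of log2 values had a median of 0.28 over the 46 genes, against 0.11 over the 10437 genes with a mean of at least 100 normalised counts, to which 45 of the 46 belong. *Mx1* had the largest spread (SD 0.95), followed by *Oas3* (0.67) and *Rsad2* (0.65). *Ifi27* (0.10), *Irf9* (0.11) and *Trim25* (0.11) varied least. Genes with the ISRE core in their window had a median SD of 0.32 (18 genes) and those without it of 0.22 (15 genes), which is given as a description.

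**Figure D2:**
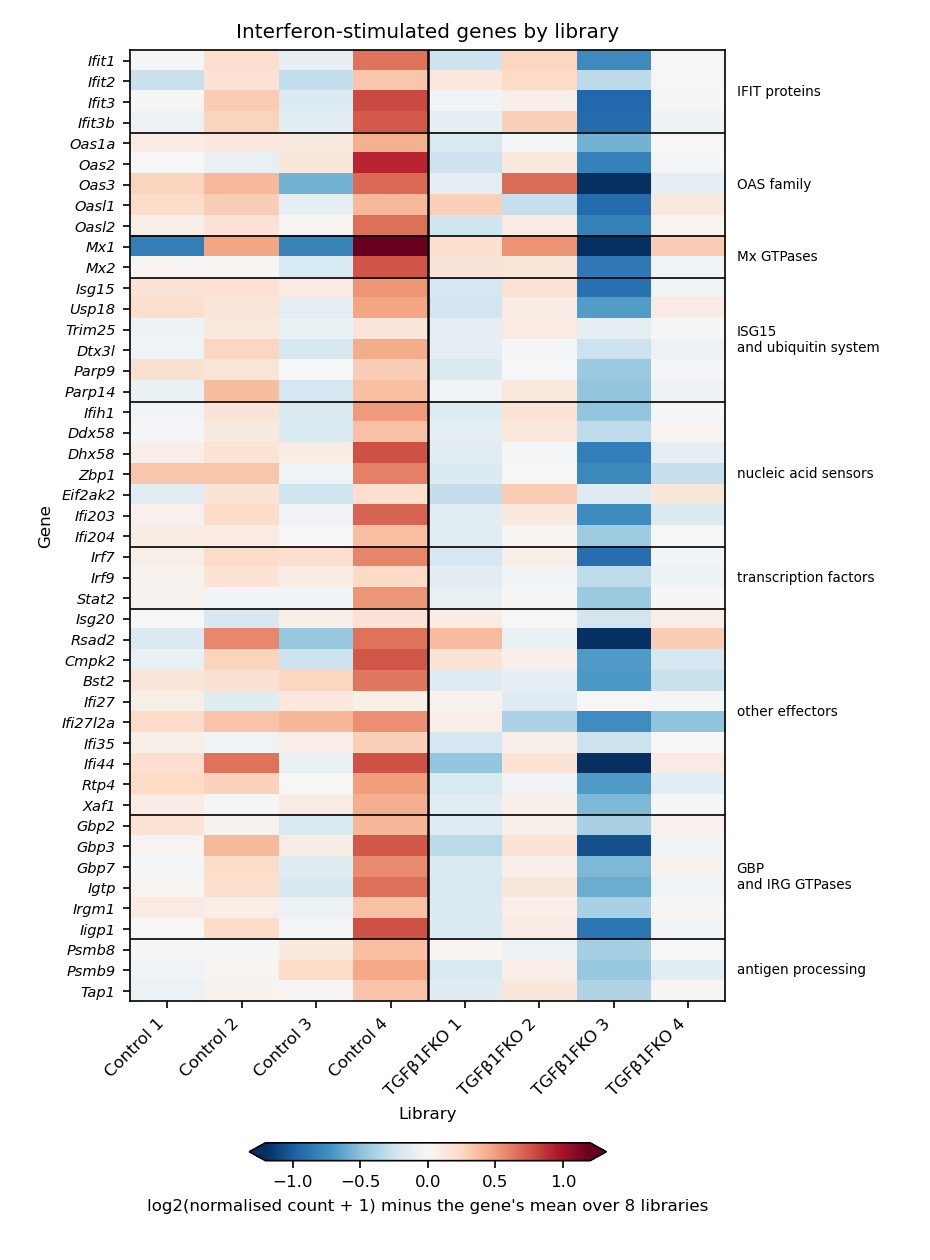
Rows are the 46 genes in the order of their roles and columns the 8 libraries; colour gives log2(normalised count + 1) minus the mean of the gene over the libraries, from blue (lower) to red (higher), with values beyond 1.2 in the end colours. The column of control replicate 4 is red in all 46 rows and that of TGFβ1FKO replicate 3 is lowest in 43 rows.

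Compared between genotypes, 44 of the 46 genes had a lower mean log2 value in TGFβ1FKO than in control fibroblasts, and none passed the test. The median log2 fold change was -0.32, while that of all 15111 genes was 0.0031 and 49.1% of all genes were lower. With limma's moderated test on log2(normalised count + 1), 0 of the 46 reached an adjusted p-value under 0.05 with an absolute log2 fold change over 0.6, where 0.086% of all genes did so. The adjusted p-values of the 46 genes ranged from 0.113 to 0.998. Before adjustment, 21 of the 46 (45.7%) had a p-value under 0.05, all of them lower in TGFβ1FKO fibroblasts, against 3.87% of all genes that were lower at this level. In 6 genes, *Oas1a*, *Dhx58*, *Irf9*, *Bst2*, *Ifi27l2a* and *Rtp4*, every TGFβ1FKO library lay below every control library (13.0% of the 46, against 2.1% of all genes), and in 0 genes above. These genes are known to be induced together, so that the 46 are not independent observations.

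**Figure D3:**
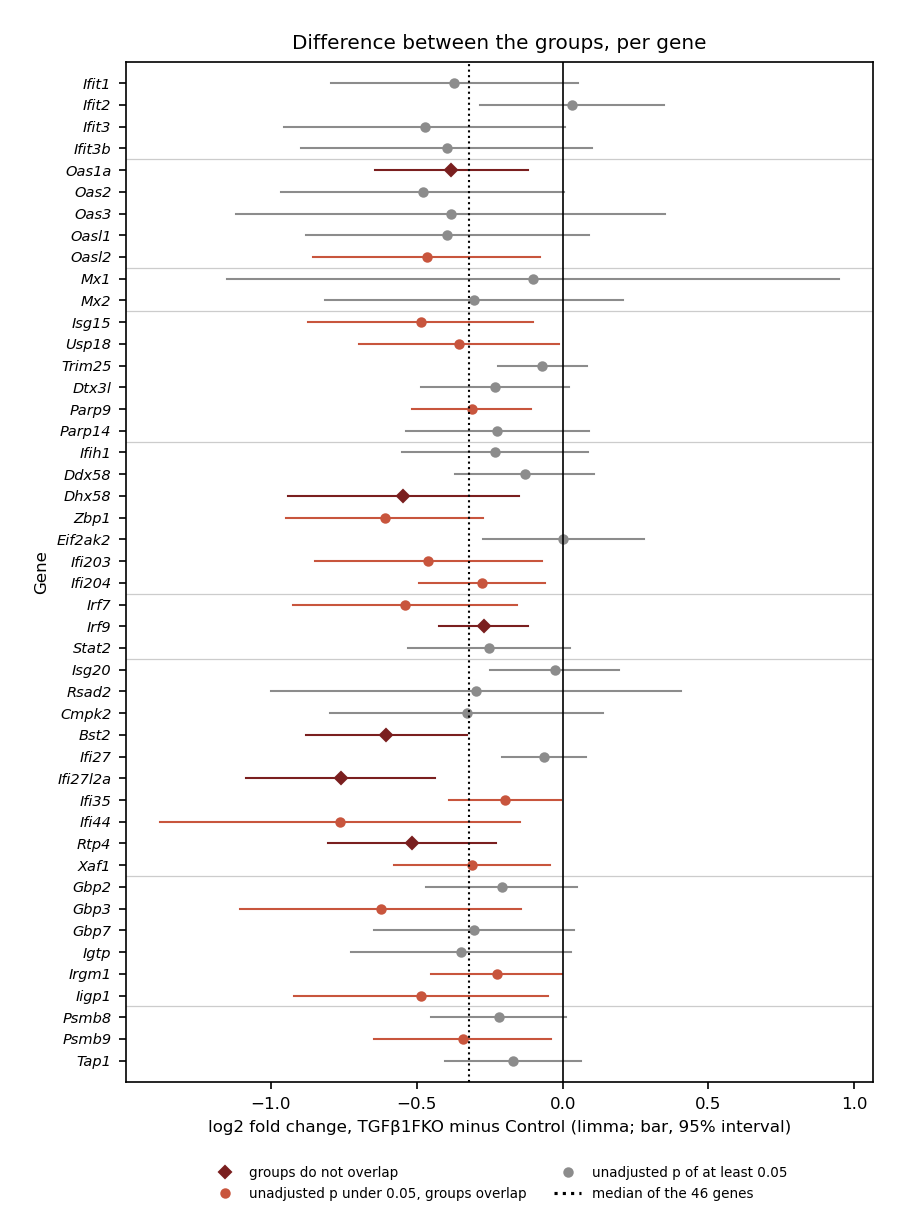
Points are the log2 fold changes of the 46 genes (TGFβ1FKO minus control, limma, 4 libraries per group) with 95% confidence intervals, in the order of their roles, and the dotted line marks their median of -0.32. The values run from -0.76 (*Ifi44* and *Ifi27l2a*) to 0.03 (*Ifit2*), and diamonds mark the 6 genes whose groups do not overlap.

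The count depended on the libraries that stood apart. Without control replicate 4, 42 genes were lower with a median of -0.22, and 10 had an unadjusted p-value under 0.05 (4.41% of all genes were lower at this level). Without TGFβ1FKO replicate 3, 41 were lower with a median of -0.18, and 11 had such a p-value (3.29% of all genes). With both left out, 34 were lower, the median was -0.06, 9 lower genes and 1 higher gene (*Mx1*) had an unadjusted p-value under 0.05, and 4.15% of all genes were lower at this level. These libraries were chosen for their level of the same genes, so that a smaller difference follows in part from the choice. Without control replicate 4 and TGFβ1FKO replicate 3, the log2 fold change was -0.58 for *Ifi27l2a*, -0.37 for *Bst2*, -0.35 for *Zbp1* and -0.29 for *Rtp4*. In this fit *Bst2* had an adjusted p of 0.045 (limma), with a change below the 0.6 threshold. Over all libraries 6 of the 46 genes had no overlap of the groups. This number was 11 without control replicate 3, where 3.22% of all genes were lower without overlap. It was 17 without TGFβ1FKO replicate 2, where 3.4% were. With fewer libraries the groups of any gene overlap less readily. Control replicate 3 had the lowest level of these genes among the controls (-0.04). TGFβ1FKO replicate 2 had the highest of its group (0.08), so that a larger number follows in part from the choice.

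**Figure D4:**
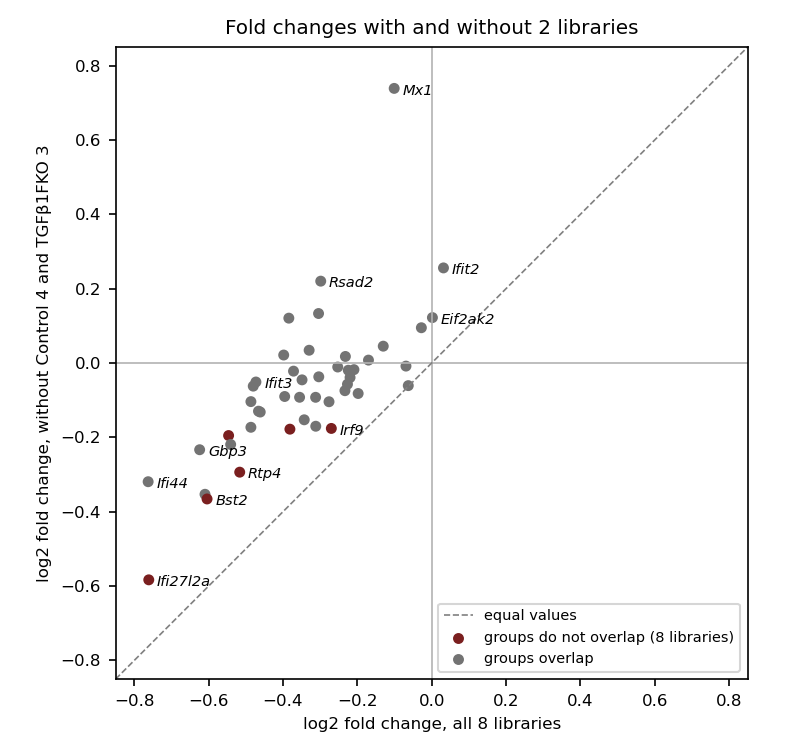
Each point is 1 of the 46 genes, with its log2 fold change over all 8 libraries on the horizontal axis and without control replicate 4 and TGFβ1FKO replicate 3 on the vertical axis; the dashed line marks equal values and dark points the 6 genes whose groups do not overlap over the 8 libraries. Most points lie above the line near 0 on the vertical axis, *Ifi27l2a* stays at -0.58 and *Mx1* moves from -0.10 to 0.74.

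The signal upstream of these genes was read from lists of the pathway. Of 21 interferon genes, *Ifnb1* included, 0 were among the genes analysed here. Of the 6 receptor genes 5 were measured, and their log2 fold changes were small: 0.03 for *Ifnar1*, -0.07 for *Ifnar2*, 0.05 for *Ifngr1*, 0.08 for *Ifngr2* and 0.001 for *Il10rb*. None had an unadjusted p-value under 0.05. *Ifnar1*, a chain that all type I interferons share, ranged from 1224 to 1268 normalised counts in control and from 1252 to 1282 in TGFβ1FKO libraries, and its groups overlapped.

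Of the kinases, STATs and IRFs outside the list, 9 of 10 were measured and 0 were called, with 6 lower and 3 higher. *Irf1*, a transcription factor induced through GAS elements, had 474, 474, 461 and 480.0 normalised counts in the control libraries and 415, 375, 423 and 412 in the TGFβ1FKO libraries. Its groups did not overlap, although the difference was small (log2 fold change -0.22, adjusted p = 0.51, limma). *Irf3*, which relays the signal of nucleic acid sensors, showed only -0.17 on the log2 scale (adjusted p = 0.654, limma).

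The transcription factors of the list are components of the ISRE complex and the factor that amplifies the response. *Irf9*, the DNA-binding subunit of the ISRE complex, had 1348, 1469, 1388 and 1549 normalised counts in the control libraries and 1192, 1278, 1056 and 1252 in the TGFβ1FKO libraries. All TGFβ1FKO libraries lay below all control libraries, and at 83.0% of the control mean the difference was small (log2 fold change -0.27, 95% confidence interval -0.42 to -0.12, adjusted p = 0.355, limma). *Irf7*, which drives a further wave of interferon genes, had 1420.3, 1587, 1550.2 and 2038 normalised counts in the control libraries and 1181, 1421, 717 and 1321 in the TGFβ1FKO libraries. TGFβ1FKO replicate 2 and control replicate 1 differed by less than 1 normalised count, and all other TGFβ1FKO libraries lay below the controls (log2 fold change -0.54, adjusted p = 0.536). *Stat2*, with the highest counts of the 3, had 2387, 2273, 2273 and 3363 normalised counts in the control libraries and 2180.3, 2349.8, 1706 and 2354 in the TGFβ1FKO libraries. Here control replicate 4 stood apart and the other controls overlapped with TGFβ1FKO replicates 2 and 4 (log2 fold change -0.25, adjusted p = 0.682). *Irf9* shares 123 exon bases with *Rnf31* on the same strand, and *Irf7* shares 45 with *Phrf1* on the opposite strand. Reads of overlapping genes may be mixed, on opposite strands too, since the libraries do not keep the strand.

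Among the 7 sensors of nucleic acid, 6 were lower, 4 of them with an unadjusted p-value under 0.05. *Zbp1*, a sensor of Z-form nucleic acid that triggers cell death, had 1182, 1180.4, 908 and 1425 normalised counts in the control libraries and 835, 938, 547 and 776 in the TGFβ1FKO libraries. Only TGFβ1FKO replicate 2 lay above the lowest control library, and the mean was 65.9% of that of the controls (log2 fold change -0.61, 95% confidence interval -0.95 to -0.27, adjusted p = 0.331, limma). *Dhx58* encodes LGP2, which modulates the signalling of RIG-I and MDA5.

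*Dhx58* had 588, 623, 591 and 948 normalised counts in the control libraries and 509, 553, 312 and 512 in the TGFβ1FKO libraries. The groups did not overlap, and control replicate 4 stood well above the other controls (log2 fold change -0.55, adjusted p = 0.536, limma). *Dhx58* shares 141 exon bases with its antisense gene *Dhx58os*. *Ddx58*, which encodes the RNA sensor RIG-I and had the highest counts of the sensors, had 2566, 2807, 2295 and 3312 normalised counts in the control libraries and 2413, 2839, 2101 and 2652 in the TGFβ1FKO libraries. In *Ddx58* the groups overlapped widely (log2 fold change -0.13, adjusted p = 0.814).

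The HIN-200 genes *Ifi203* and *Ifi204*, relatives of the DNA sensor IFI16, showed a similar picture. *Ifi203* had 687, 775, 645 and 1078 normalised counts in the control libraries and 607, 723, 394 and 595 in the TGFβ1FKO libraries. *Ifi204* had 1806, 1813, 1692 and 2182 normalised counts in the control libraries and 1538, 1721, 1259.7 and 1685 in the TGFβ1FKO libraries. In each of them TGFβ1FKO replicate 2 was the only library of its group above the lowest control, with log2 fold changes of -0.46 and -0.28 (adjusted p = 0.632 and 0.597, limma). Transcripts of the pair are 88.5% identical over 931 aligned bases, so that reads may be shared between them. *Eif2ak2*, the kinase PKR that halts translation when double-stranded RNA is present, had 1403, 1719, 1304 and 1773 normalised counts in the control libraries and 1262, 1896, 1383 and 1695 in the TGFβ1FKO libraries. Here the groups were interleaved and the highest library was TGFβ1FKO replicate 2 (log2 fold change 0.002, 95% confidence interval -0.27 to 0.28), a direction that changed to -0.0031 with TMM scaling. *Ifih1*, which encodes MDA5, showed -0.23 on the log2 scale (adjusted p = 0.735).

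The IFIT proteins bind viral RNA and inhibit its translation. Of these 4 genes 3 were lower, and 0 had an unadjusted p-value under 0.05. *Ifit3* had 3141, 3848, 2777 and 5412 normalised counts in the control libraries and 3039, 3245, 1623 and 3061 in the TGFβ1FKO libraries. TGFβ1FKO replicate 3 lay far below all other libraries, while the other 3 of its group lay above the lowest control (log2 fold change -0.47, 95% confidence interval -0.95 to 0.01, adjusted p = 0.671, limma). *Ifit3* and *Ifit3b* are 97.8% identical over 1700 aligned bases and carry the same promoter stretch shown above, so their counts are uncertain separately, and *Ifit3b* had a log2 fold change of -0.40. *Ifit1* had a log2 fold change of -0.37.

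*Ifit2* was the highest of the 46 fold changes at 0.03, with 684, 929.7, 669.7 and 1036 normalised counts in the control libraries and 902, 970.4, 664 and 829 in the TGFβ1FKO libraries. Its groups overlapped almost completely, and the sign changed with the library that was left out. The RefSeq window of *Ifit2* held no ISRE core, unlike those of the other 3 IFIT genes.

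The OAS enzymes make the second messenger that activates RNase L. All 5 were lower, the median being -0.40 on the log2 scale, and 2 had an unadjusted p-value under 0.05. *Oas1a* had 563, 573, 567 and 704 normalised counts in the control libraries and 463, 518, 354 and 526 in the TGFβ1FKO libraries. Control replicates 1 to 3 lay within 10 normalised counts of each other, and all TGFβ1FKO libraries lay below them (log2 fold change -0.38, 95% confidence interval -0.64 to -0.12, adjusted p = 0.525, limma). *Oasl2*, an OAS-like protein with the highest counts of this family, had 2466, 2657, 2405 and 3723 normalised counts in the control libraries and 1999, 2519, 1339 and 2391 in the TGFβ1FKO libraries. TGFβ1FKO replicate 2 lay above control replicates 1 and 3 (log2 fold change -0.47, adjusted p = 0.632). *Oas2*, *Oas3* and *Oasl1* had log2 fold changes between -0.48 and -0.38.

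The Mx GTPases trap viral nucleocapsids. *Mx2* had 187, 185, 161 and 310.1 normalised counts in the control libraries and 204, 203, 100.5 and 177 in the TGFβ1FKO libraries. Apart from the extreme library of each group the values were alike (log2 fold change -0.30, adjusted p = 0.804, limma). *Mx1* was the gene with the lowest counts, between 24.1 and 153, and had a log2 fold change of -0.10 with a 95% confidence interval of -1.15 to 0.95. Their transcripts are 94.8% identical over 920 aligned bases.

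Of the ISG15 and ubiquitin system, in which the ubiquitin-like protein ISG15 is attached to other proteins, all 6 genes were lower, 3 with an unadjusted p-value under 0.05. *Isg15* itself had 3140.1, 3158, 2997 and 4047 normalised counts in the control libraries and 2425, 3159, 1505 and 2709 in the TGFβ1FKO libraries. TGFβ1FKO replicate 2 matched the controls and the other 3 libraries of the group lay below all of them (log2 fold change -0.49, 95% confidence interval -0.87 to -0.10, adjusted p = 0.597, limma). *Usp18*, the protease that removes ISG15 and damps receptor signalling, had 1345, 1286, 1070.0 and 1615 normalised counts in the control libraries and 994, 1236, 729.9 and 1243 in the TGFβ1FKO libraries.

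In *Usp18*, TGFβ1FKO replicates 2 and 4 lay above control replicate 3 (log2 fold change -0.36, adjusted p = 0.657, limma). *Parp9*, which works with the ubiquitin ligase DTX3L, had 1738, 1688, 1532 and 1878 normalised counts in the control libraries and 1357, 1538, 1127 and 1512 in the TGFβ1FKO libraries. Only replicate 2 of the TGFβ1FKO group overlapped with the controls (log2 fold change -0.31, adjusted p = 0.486). The exons of *Parp9* and *Dtx3l* share 458 bases on opposite strands, and *Dtx3l* had a log2 fold change of -0.23. *Trim25*, the ubiquitin ligase that activates RIG-I, had -0.07 and *Parp14* had -0.22. Outside the list, the E1 enzyme of ISG15, *Uba7*, and its E2 enzyme, *Ube2l6*, had log2 fold changes of -0.45 and -0.42 without overlap of the groups (adjusted p = 0.444 and 0.444, limma). *Herc6*, also outside the list, had -0.28 with overlap of the groups (adjusted p = 0.728, limma).

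The other effectors held the differences with the smallest p-values. *Ifi27l2a*, a small mitochondrial protein of the IFI27 family, had 279.6, 302, 315 and 349.6 normalised counts in the control libraries and 251, 183, 142 and 171 in the TGFβ1FKO libraries. Every TGFβ1FKO library lay below every control library, with means of 311 ± 29.3 in control and 187 ± 46.4 in TGFβ1FKO fibroblasts (SD, n = 4 each), or 60.0% of control. The log2 fold change was -0.76 (95% confidence interval -1.08 to -0.44; adjusted p = 0.113, limma).

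*Bst2* encodes tetherin, which holds budding viruses at the plasma membrane, and per kilobase of exon it was the most abundant of the 46 genes. *Bst2* had 4145, 4236, 4462 and 5785 normalised counts in the control libraries and 3364, 3499, 2318 and 3111 in the TGFβ1FKO libraries. Without overlap of the groups, the TGFβ1FKO mean was 66.0% of the control mean (log2 fold change -0.60, 95% confidence interval -0.88 to -0.33, adjusted p = 0.155, limma). *Rtp4*, a chaperone of membrane receptors that also restricts viruses, had 944, 969, 802 and 1128 normalised counts in the control libraries and 701, 775, 496 and 732 in the TGFβ1FKO libraries. Its groups did not overlap either and came closest in control replicate 3 and TGFβ1FKO replicate 2 (log2 fold change -0.52, adjusted p = 0.334, limma). *Rtp4* shares 296 exon bases with *Gm45338* on the same strand. For each of the 6 genes without overlap, the two-sided exact permutation test gave p = 0.0286, the smallest that 4 libraries against 4 allow. This value follows from the absence of overlap by which the genes were picked, and adds nothing to it.

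*Ifi44*, a GTP-binding protein of the antiviral response, had 286, 391, 234 and 425 normalised counts in the control libraries and 180.4, 279, 98.8 and 267 in the TGFβ1FKO libraries. Its fold change was as large as that of *Ifi27l2a*, but TGFβ1FKO replicates 2 and 4 lay above control replicate 3 (log2 fold change -0.76, 95% confidence interval -1.38 to -0.14, adjusted p = 0.605, limma). *Xaf1*, a promoter of apoptosis, had 972, 924, 977 and 1236 normalised counts in the control libraries and 839, 954, 629 and 905 in the TGFβ1FKO libraries. In *Xaf1* only TGFβ1FKO replicate 2 reached into the control range (log2 fold change -0.31, adjusted p = 0.632). *Ifi35*, which binds other interferon-induced proteins, had 765, 711, 773 and 891 normalised counts in the control libraries and 635, 761, 610.3 and 733 in the TGFβ1FKO libraries. The difference was small and the groups overlapped (log2 fold change -0.20, adjusted p = 0.658).

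Of the remaining effectors, *Rsad2*, which encodes viperin, and its neighbour *Cmpk2* had log2 fold changes of -0.30 and -0.33. *Isg20*, an RNA exonuclease, had -0.03. *Ifi27* lies beside *Ifi27l2a* on chromosome 12, from 103434211 to 103440239, while *Ifi27l2a* extends from 103442167 to 103443680 (GENCODE M21, GRCm38). *Ifi27* had a log2 fold change of -0.06 with a 95% confidence interval of -0.21 to 0.08 that ends short of the interval of its neighbour, and the difference between these genes was not tested.

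DESeq2's test against 0 on the recovered reads called 3 of the 46 genes at the same thresholds, *Ifi27l2a*, *Bst2* and *Zbp1*, where it called 0.371% of all genes. The adjusted p-values were 0.0015 for *Ifi27l2a*, 0.00182 for *Bst2* and 0.0241 for *Zbp1*. *Rtp4* had an adjusted p of 0.0393 in this test with a change below the 0.6 threshold. When DESeq2 tested for changes beyond 0.6 on the log2 scale, 0 of the 46 were called, and edgeR's quasi-likelihood test called 0 as well. Without TGFβ1FKO replicate 1, which had the highest value of its group, limma's test called *Ifi27l2a* (log2 fold change -0.91, adjusted p = 0.0183).

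**Figure D5:**
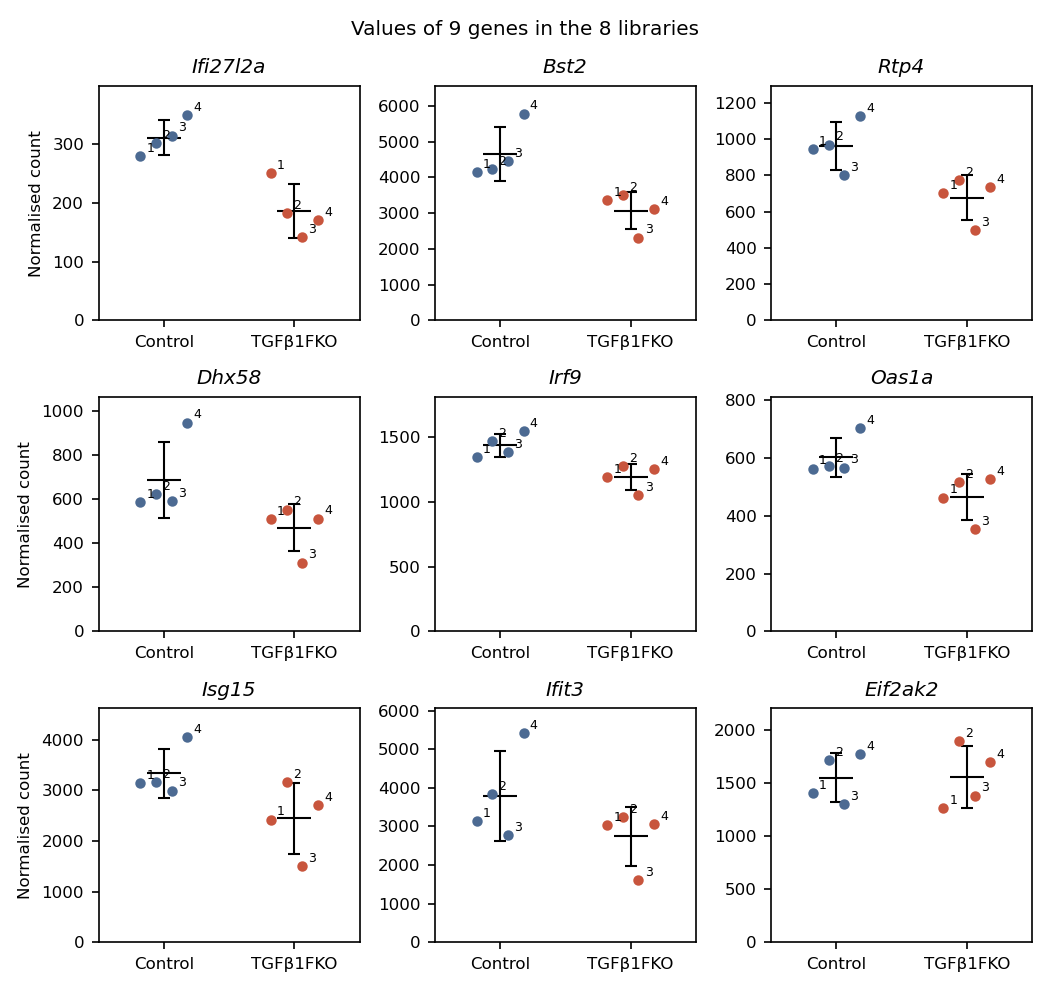
Normalised counts of 9 genes in the 8 libraries, with axes from 0; dots are libraries with their replicate numbers, the horizontal dash is the mean and the bars are the SD of 4 libraries. In *Ifi27l2a*, *Bst2*, *Rtp4*, *Dhx58*, *Irf9* and *Oas1a* all TGFβ1FKO dots lie below the control dots, whereas those of *Isg15* and *Ifit3* overlap and those of *Eif2ak2* are interleaved.

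The GBP and IRG GTPases, which attack the vacuoles of intracellular pathogens, were lower in 6 of 6 genes with a median of -0.33. *Gbp3* had 788, 1014, 819 and 1292 normalised counts in the control libraries and 618, 865, 371 and 753 in the TGFβ1FKO libraries. TGFβ1FKO replicate 2 lay above control replicates 1 and 3, and TGFβ1FKO replicate 3 far below the rest (log2 fold change -0.62, 95% confidence interval -1.11 to -0.14, adjusted p = 0.588, limma). *Iigp1*, a founding member of the IRG family, had 999, 1163, 988 and 1692 normalised counts in the control libraries and 888, 1069.8, 545 and 974 in the TGFβ1FKO libraries.

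In *Iigp1* only TGFβ1FKO replicate 2 reached above the lowest control library (log2 fold change -0.49, adjusted p = 0.641, limma). *Irgm1*, a regulator of the other IRG proteins and the most abundant of this group in counts, had 2382, 2361, 2121 and 2840.4 normalised counts in the control libraries and 1987, 2362, 1706 and 2258 in the TGFβ1FKO libraries. Its groups overlapped in 2 libraries of each (log2 fold change -0.23, adjusted p = 0.669). *Gbp2*, *Gbp7* and *Igtp*, of which *Gbp7* and *Igtp* are shown above with their ISRE core, had log2 fold changes of -0.21, -0.30 and -0.35.

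All 3 genes of antigen processing were lower. *Psmb9*, an immunoproteasome subunit, had 175, 184, 212 and 248 normalised counts in the control libraries and 158, 191, 131 and 164 in the TGFβ1FKO libraries. TGFβ1FKO replicate 2 lay above control replicates 1 and 2 (log2 fold change -0.34, adjusted p = 0.641, limma). *Tap1*, which moves peptides into the endoplasmic reticulum, had 1665, 1794, 1773 and 2219 normalised counts in the control libraries and 1576, 1921, 1363 and 1777 in the TGFβ1FKO libraries. In *Tap1* the groups overlapped widely (log2 fold change -0.17, adjusted p = 0.734), and *Psmb8* had -0.22. *Tap1* and *Psmb9* share 212 exon bases on opposite strands.

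Per kilobase of exon, the mean level over the 8 libraries ran from 18.2 normalised counts for *Mx1* to 4280.3 for *Bst2*. *Isg15* (3826), *Ifi27* (2048), *Ifit3* (1873) and *Ifit1* (1105) followed *Bst2*, and *Oas3* (22.7) and *Ifi44* (44.1) lay near the lower end. The genes were thus well above the counting floor of 3 reads in cultures to which, as far as the labels say, no interferon was added. In all, the 46 genes took up 0.286% to 0.394% of the normalised counts in control and 0.197% to 0.294% in TGFβ1FKO libraries.

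Fold changes were also set beside the response element. Their median was -0.36 on the log2 scale in the 18 genes with an ISRE core, -0.27 in the 15 without it, and -0.36 in the 13 without a window. No test was made between them, since the genes share the same libraries.

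A longer list of interferon-induced genes had the same libraries at its ends. Of its 110 genes, 94 were measured and 83 of these were lower in TGFβ1FKO fibroblasts, against 49.1% of all genes. Their median was -0.18 on the log2 scale. With limma 0 were called, as with edgeR and DESeq2. An unadjusted p-value under 0.05 was found for 30, all lower, against 3.87% of all genes that were lower at this level. The library medians were 0.01, 0.10, 0.01 and 0.35 in control and -0.04, 0.02, -0.33 and -0.02 in TGFβ1FKO libraries, so that control replicate 4 was again the highest and TGFβ1FKO replicate 3 the lowest. The complement gene *C4b* had the largest change (-1.13, adjusted p = 0.318), with 209, 539, 384 and 379 normalised counts in the control libraries and 251, 105, 139.5 and 191 in the TGFβ1FKO libraries. Only TGFβ1FKO replicate 1 lay above the lowest control in *C4b*. *Ly6e*, a membrane protein that modulates virus entry, had the smallest p-value of this list with 6406, 6723, 6165 and 7512 normalised counts in the control libraries and 5829, 5369, 4709 and 5589.5 in the TGFβ1FKO libraries. Its groups did not overlap (log2 fold change -0.32, adjusted p = 0.26, limma).

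Genes that sense nucleic acid upstream of interferon and genes that restrain the response went both ways. Of the 17 measured genes of upstream sensing 10 were lower and 7 higher (median -0.01), and of the 15 negative regulators 8 were lower and 7 higher (median -0.0014). Neither list held a gene with an unadjusted p-value under 0.05, and 0 of them were called by limma, edgeR or DESeq2. In upstream sensing 1 gene, *Ticam1*, was higher without overlap of the groups (log2 fold change 0.15, adjusted p = 0.673, limma), and 0 were lower without overlap.

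Markers of other cells were summed in each library beside these results. The 5 measured leukocyte markers, *Cd68*, *Csf1r*, *Mrc1*, *Laptm5* and *Lyz2*, summed to 533, 506, 543 and 583 normalised counts in the control libraries and 451, 523, 308 and 475 in the TGFβ1FKO libraries. The lowest sum was that of TGFβ1FKO replicate 3 and the highest that of control replicate 4. These are also the lowest and the highest library of the interferon-stimulated genes. By gene, *Lyz2* was highest in control replicate 4, with 298, 279, 231 and 342 normalised counts in the control libraries. *Cd68*, *Csf1r* and *Laptm5* were highest in control replicate 3 and *Mrc1* in TGFβ1FKO replicate 4. *Cd68* and *Lyz2* were lowest in TGFβ1FKO replicate 3. The part of these cells in the result was not tested. Of the 5, *Laptm5*, a lysosomal membrane protein of blood cells, had 21.5, 46.8, 65.4 and 24.7 normalised counts in the control libraries and 16.2, 3.11, 4.15 and 4.43 in the TGFβ1FKO libraries. Its groups did not overlap and its fold change was larger in size than that of any of the 46 genes (log2 fold change -2.46, adjusted p = 0.112, limma), with the highest value in control replicate 3 and the lowest in TGFβ1FKO replicate 2. The other 4 leukocyte markers overlapped between the groups, with log2 fold changes of -0.31 for *Cd68*, 0.05 for *Csf1r*, 0.39 for *Mrc1* and -0.39 for *Lyz2*. The 4 measured markers of Langerhans and dendritic cells, out of 9, summed to between 49.9 and 77.6 in control and between 52.7 and 76.6 in TGFβ1FKO libraries. Of 11 markers of T, NK and B cells 2 were measured, with sums of 13.3 to 20.7 and 18.2 to 28.8. All 10 endothelial markers were measured, with sums of 564 to 898 in control, where replicate 4 was the lowest, and 561 to 626 in TGFβ1FKO libraries.

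The 4 measured keratinocyte markers of 10 summed to 201 to 262 in control and 254 to 309.7 in TGFβ1FKO libraries. The 8 measured markers of Schwann cells and melanocytes, out of 11, summed to 689 to 1135 and 448 to 506, without overlap of the groups, and their part in the result was not tested either. Mitochondrial transcripts took up 1.15% to 1.27% and ribosomal protein transcripts 3.74% to 4.41% of the normalised counts over all libraries. Control replicate 4 had the lowest share of ribosomal protein transcripts (3.74%) and TGFβ1FKO replicate 3 had 3.79%. Whether this share is related to the level of the interferon-stimulated genes was not tested.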

How the data were processed

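RNA of 8 libraries, 4 per group as the labels give it, was sequenced in paired-end mode with a kit that does not keep the strand. The authors aligned the reads to GRCm38 with HISAT2, left out genes with low total counts and normalised with DESeq2, and the submitters' processing notes also list featureCounts 1.5.0-p3. The deposited signal is a normalised count per gene and library with 0.5 added, and no gene had fewer than 41 reads in all libraries together. The authors' own fold changes and p-values in the table were not used.

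After removal of the 0.5, log2 values with a pseudocount of 1 were formed, and all 15111 genes were fitted with limma 3.58.1 (mean-variance trend, R 4.3.3). A fold change on this scale understates the change of low genes. Calls needed a Benjamini-Hochberg adjusted p under 0.05 with a log2 fold change beyond 0.6 in size, the thresholds of the study. In this way, 100% of values were whole reads in each library (tolerance 0.1), and edgeR 4.0.16 and DESeq2 1.42.0 were run on them. In count tests of these reads, edgeR called 20 genes and DESeq2 56. The counting floor of 3 reads covers counting error only. Values in all libraries are given for genes of the list with an unadjusted p under 0.05 or no overlap, the 3 largest changes in each direction with a mean of at least 10, and the highest mean of each role. The rule for the 46 genes uses no measured value, but these genes and the other lists were chosen with earlier results of these data known and are not independent of them. Positions and overlaps are from GENCODE M21, where exon lengths join all transcripts, and 15098 of the genes matched. Every pair of libraries in a group differed by more than sampling noise. Same-numbered libraries did not deviate together (correlations of -0.10 to 0.09 over 13863 genes). The main limma fit, edgeR's test and DESeq2's test against 0 were tried on simulated data, in which genes varied independently of each other. The other alternatives were not tried in this way. Alternatives covered the test, scaling, pseudocount, filter, block and each library. The result of 1 pathway gene was left out and is not reported here, although the counts over its list include it.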

Additional observations from a re-analysis of the deposited data

Results flagged for a closer look

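In 96 groups of 4 libraries (46 genes, their library level and *Tgfb1*, in each genotype), the highest or the lowest library was compared with the range of its group. A library lay far from the other 3 in 7 groups, where 4.8 would be expected, as chance gives such a gap in about 1 of 20 groups. Control replicate 4 was the distant library in 6 of these. It had 704 normalised counts of *Oas1a*, against 563 to 573 in the other controls. It had 706 of *Oas2* against 349.6 to 410.3, and 4047 of *Isg15* against 2997 to 3158. In *Dhx58* it had 948 against 588 to 623, in *Stat2* 3363 against 2273 to 2387, and in *Xaf1* 1236 against 924 to 977. TGFβ1FKO replicate 3 had 1623 normalised counts of *Ifit3*, against 3039 to 3245 in the other libraries of its group. As these genes share the libraries, the 7 gaps are not independent of each other. The library level of the 46 genes was not among the 7 groups in either genotype.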

How the results depend on the processing

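The alternatives left 486 of the 504 values of single genes on the same side of 0 and of the thresholds, made 6 pass the thresholds and turned the sign of 12. The median over the 46 genes stayed below 0 in all 17 alternatives that gave it, from -0.41 to -0.06, and ranged from -0.41 to -0.18 with 1 library left out. The number of genes called over the whole table, 13, was 20 with edgeR's test, 22 with edgeR and TMM, 56 with DESeq2's test against 0, 34 without control replicate 4 and TGFβ1FKO replicate 3, and 5 to 32 with 1 library left out. Of the 46, 0 were called in limma's test, 3 with DESeq2's test against 0 and 0 to 1 with 1 library left out. Those with an unadjusted p under 0.05, 21, numbered 10 without both libraries (9 of them lower) and 10 to 31 with 1 left out. Of all genes, 4.15% were lower at this level without both libraries and 2.97% to 4.63% with 1 left out. Those without overlap of the groups, 6, numbered 6 to 17, where the 17 stand beside 3.4% of all genes. With the replicate block, 31 genes were called over the table, 2 of the 46 were called (*Zbp1*, adjusted p = 0.0208, and *Ifi44*, adjusted p = 0.0407) and 35 had an unadjusted p under 0.05, but the libraries share only a number. *Eif2ak2* had a log2 fold change of -0.0031 with TMM scaling and -0.098 to 0.097 with 1 library left out, and *Ifit2* -0.062 to 0.15. Without both libraries, *Mx2* had 0.13, *Ddx58* 0.045 and *Tap1* 0.0079. TMM in limma and leaving out both libraries were chosen after seeing the data, and what caused these differences was not tested. With 4 libraries per group, and a spread within groups that was wide for these genes, small changes lie within the confidence intervals.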

Other observations

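Among the further interferon-induced genes, several of antigen presentation and of the cell membrane had values not given above. *Tapbp*, which encodes the chaperone tapasin, had 5514, 5519.7, 5459 and 6481 normalised counts in the control libraries and 5333, 4946, 4239 and 4908 in the TGFβ1FKO libraries. Its groups did not overlap (log2 fold change -0.24, adjusted p = 0.51, limma). *H2-T23*, a non-classical class I molecule, had 1986, 2071, 2217 and 2759 normalised counts in the control libraries and 1908, 1866, 1379 and 1850.2 in the TGFβ1FKO libraries. The groups of *H2-T23* did not overlap either (log2 fold change -0.37, adjusted p = 0.51, limma). Other genes of antigen presentation on this list did overlap between the groups. Among them, *H2-K1* had a log2 fold change of -0.12, *H2-D1* of -0.06, *H2-Q4* of -0.17 and *B2m* of -0.13, and *H2-Q7* was higher at 0.12. *Ifitm3*, which blocks the fusion of viruses with endosomes, had 10046, 9765, 10311 and 9343 normalised counts in the control libraries and 9359, 8621, 7751 and 8941 in the TGFβ1FKO libraries. Only TGFβ1FKO replicate 1 reached above its lowest control library (log2 fold change -0.19, adjusted p = 0.536, limma). *Il18bp*, a decoy receptor that neutralises interleukin 18, was scarce, with 98.9, 79.7, 77.6 and 102 normalised counts in the control libraries and 68.9, 66.3, 49.8 and 62.0 in the TGFβ1FKO libraries. No TGFβ1FKO library reached the controls (log2 fold change -0.53, adjusted p = 0.51, limma). Of the 94 measured genes, 11 were lower without overlap of the groups and 0 higher. Of all genes, 2.1% were lower without overlap.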
